A study of Mus musculus with 6 samples.

Results

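A set of 8 genes of serine and folate metabolism was followed in subcutaneous white fat of mice that lacked or carried a Cre transgene directed at Yy1. They were taken by name: Sfxn1 for serine entry into mitochondria, Phgdh, Psat1 and Psph for serine synthesis, Shmt1 and Shmt2 for the step from serine to glycine, and Mthfd1 and Mthfd2 for the folate reactions that carry the released carbon. All 8 were on the array, of 12393 genes with a probe set of their own, through 22 probe sets that the annotation gives to 1 gene each. A further 2 probe sets named Phgdh together with another gene and were left out. The set was chosen by the log2 difference of Sfxn1 between the 2 genotypes, which was already known, so all values of members in that comparison are given as a description. No p-value of a member is printed, and nothing is read from counts of calls among members. Standard errors and intervals are those of limma with eBayes, which combine a probe set's own spread over the arrays with that of all probe sets.

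Serine is made from the glycolytic intermediate 3-phosphoglycerate by Phgdh, Psat1 and Psph in turn. It can enter mitochondria through Sfxn1, where Shmt2 moves a carbon unit to tetrahydrofolate and releases glycine, and Mthfd2 oxidises the carrier on the way to formate. Shmt1 and Mthfd1 run the matching reactions in the cytosol, where the carbon feeds purine, thymidylate and methionine synthesis. In many cell types the transcription factor ATF4 raises several of these genes together when amino acids are short or mitochondria are under stress.

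All mice were 8 weeks old and of mixed C57BL6 and 129 background, and all had eaten a high fat diet during 2 weeks. Control mice were YY1flox/flox, and YY1bKO mice were YY1flox/flox; Ucp1Cre, a brown fat knockout in which Ucp1 sequences drive the recombinase mainly in thermogenic adipocytes. The samples give 3 arrays a genotype, and no label says that these came from separate animals, so the spread may not be that between animals. There was no group with Cre and no floxed allele, so Cre and loss of YY1 cannot be told apart.

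The arrays held fat tissue by adipocyte markers. Adipoq lay between 13.96 and 14.29 and Fabp4 between 14.48 and 14.65, on the log2(intensity + 1) scale used for all levels here. The Yy1 level was 10.33, 10.52 and 10.62 in control arrays and 10.13, 10.41 and 10.20 in YY1bKO, so the groups overlapped, and the differences of all 4 Yy1 probe sets ran from -0.24 to -0.07. Whether these probes lie in the deleted part is not known here, so they check nothing. Ucp1, the uncoupling protein of thermogenic fat, was 5.25 ± 0.13 (SE, n = 3 a group) higher in YY1bKO (limma adjusted p = 2.53e-04). Some arrays stood apart by other tissue. Control replicate 2 had a mean level over 12 skin and mammary epithelium markers of 7.67, against 4.76 to 5.50 on the other 5 arrays. YY1bKO replicate 1 had a mean of 8.21 over 10 skeletal muscle markers, against 5.40 to 5.79. The mean of 9 B cell markers ran from 6.34 to 9.84 in control arrays and from 5.95 to 9.00 in YY1bKO, lowest in replicate 1 of each group. In whole tissue, fewer cells of a type and less RNA per cell cannot be told apart.

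Sfxn1 was the member that separated the genotypes most clearly. Probe set 1417560_at gave 10.61, 10.63 and 10.62 in control arrays and 11.50, 11.56 and 11.42 in YY1bKO. The controls spanned only 0.0231 log2 units and the lowest YY1bKO array lay 0.79 above the highest of them. The log2 difference was 0.87 ± 0.08 (SE, n = 3 a group), a 1.83-fold higher level, with mean intensities of 1576 and 2886. The other probe set, 1417559_at, gave 10.09, 10.37 and 10.33 in control arrays and 11.19, 11.29 and 11.26 in YY1bKO, a difference of 0.98 ± 0.11. Both therefore placed every YY1bKO array above every control array by at least 0.79. Leaving out each array in turn gave differences from 0.84 to 0.91 for the former and from 0.89 to 1.04 for the latter. Since the Sfxn1 difference guided the choice of the set, these values and the rank below are a description. The mean of 11 thermogenic adipocyte markers ran from 6.08 to 6.62 in the controls and from 8.55 to 8.63 in YY1bKO. That mean split by genotype as Sfxn1 did, but Cidea, Dio2, Ppara and Acot11 of the list overlapped between groups. Dio2 and Acot11 had differences of 0.07 and -0.02. The part of such cells in the Sfxn1 values was not tested. Among all genes, each by its brightest probe set, 92 had a larger log2 difference than Sfxn1.

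**Figure D1:**
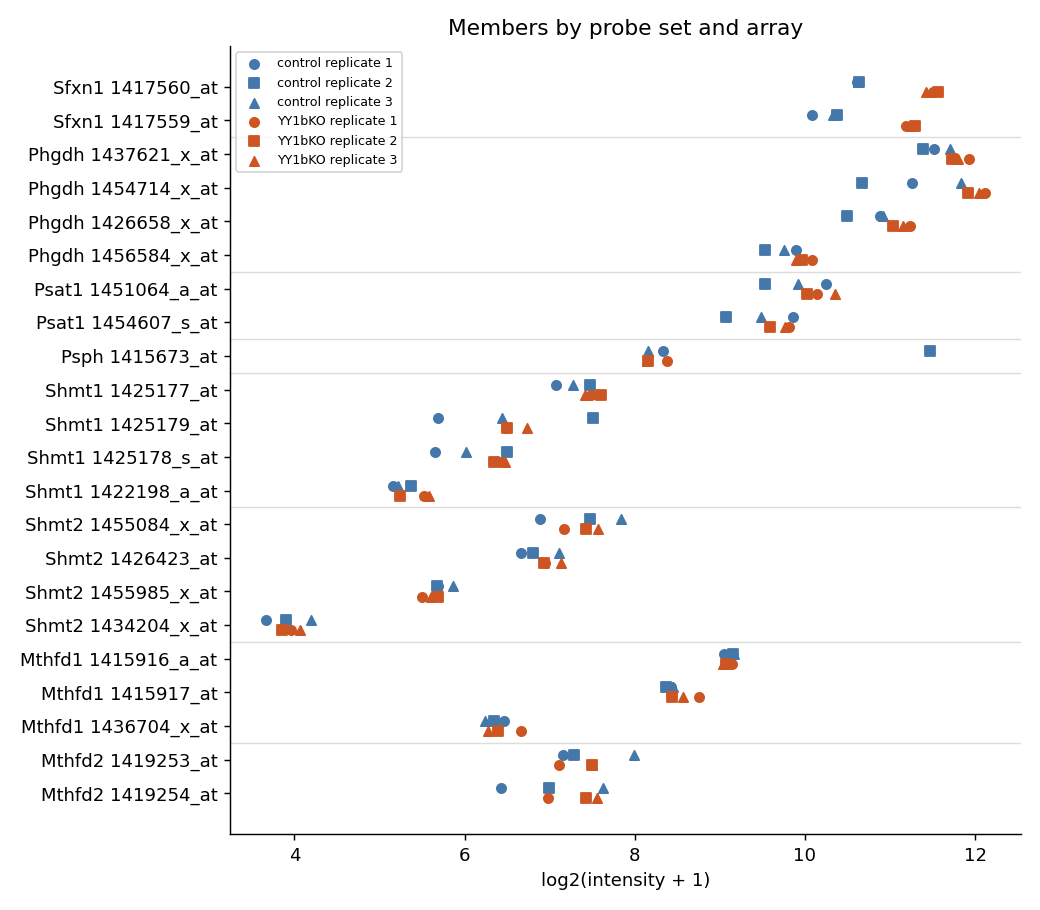
Level of each member on every array, as log2(intensity + 1), with 1 row per probe set and 1 point per array (blue, control; orange, YY1bKO; the shape gives the replicate). The orange points of Sfxn1 and Phgdh lie to the right of all their blue points, while the points of Psat1, Shmt1, Shmt2, Mthfd1 and Mthfd2 overlap, and the point of Psph at 11.46 is control replicate 2.

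The groups did not overlap in 6 of the 22 member probe sets, 2 of Sfxn1 and 4 of Phgdh, all higher in YY1bKO. Over all 22626 probe sets tested, 10.3% had all YY1bKO arrays above all controls and 5.17% had them all below. The 6 share 2 transcripts, so they are not 6 separate observations. By mean, 17 of the 22 were higher and 5 lower, with a median log2 difference of 0.21, where 49.8% of all probe sets were higher and their median was -0.0012. None of the 22 passed an adjusted p of 0.05 by limma, a threshold that 0.0486% of all probe sets passed. At an unadjusted p under 0.05, 4 were higher and 0 lower, beside 7.46% and 2.06% of all probe sets. Since this comparison guided the choice of members, nothing is read from these counts.

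Phgdh, the dehydrogenase that commits carbon to serine, was higher on all 4 of its probe sets but by unequal amounts. The brightest, 1437621_x_at, gave 11.52, 11.39 and 11.71 in control arrays and 11.93, 11.73 and 11.80 in YY1bKO. The highest control and the lowest YY1bKO array were only 0.0201 apart, and the difference was 0.28 ± 0.12 (SE). Probe set 1454714_x_at gave 11.26, 10.68 and 11.83 against 12.11, 11.92 and 12.05. Its difference of 0.77 ± 0.28 came with a control span of 1.16, the widest of the 4. The remaining 2 probe sets, 1426658_x_at and 1456584_x_at, had differences of 0.38 ± 0.14 and 0.25 ± 0.12. On the last of these, the groups were 0.0023 apart. All 4 carry the suffix _x_at, by which Affymetrix marks probe sets whose probes may also bind other sequences. Control replicate 2, with its high epithelial marker level, was the lowest array on all 4. Without it the differences were 0.20, 0.48, 0.25 and 0.16 in the order given, and since it was the lowest control, its removal could not make the groups overlap. The part of other tissue in these values was not tested.

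Psat1, the aminotransferase that follows Phgdh, overlapped between genotypes. Probe set 1451064_a_at gave 10.24, 9.53 and 9.92 in control arrays and 10.15, 10.03 and 10.35 in YY1bKO, a difference of 0.28 ± 0.20 (SE). Probe set 1454607_s_at gave 9.86, 9.07 and 9.49 against 9.81, 9.59 and 9.77, a difference of 0.25 ± 0.21. Control replicate 2 was again the lowest on both. Without that array the differences were 0.09 and 0.05, and without control replicate 1 they were 0.45 and 0.44.

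Psph, the phosphatase that completes serine synthesis, was set apart by a single array. Its probe set 1415673_at gave 8.34, 11.46 and 8.15 in control arrays and 8.38, 8.15 and 8.14 in YY1bKO. The other 5 arrays thus lay within 8.14 and 8.38, and the high value was that of control replicate 2. The log2 difference of -1.09 ± 0.87 (SE) became -0.02 without that array. Krt14, a keratin of basal epithelium, was 12.45 on the same array and at most 5.25 on the others, and Cdh1, the epithelial cadherin, was 10.70 there and at most 5.26 elsewhere. Krt19, Csn2, Csn3 and Wap, of the same epithelial marker list, were not highest on that array, at 4.36, 4.03, 3.86 and 4.90. The part of epithelial tissue in the Psph value was not tested.

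Shmt1, the cytosolic hydroxymethyltransferase, was higher by mean on all 4 probe sets, and the groups overlapped on each. Probe set 1425177_at gave 7.08, 7.48 and 7.28 in control arrays and 7.48, 7.61 and 7.41 in YY1bKO, a difference of 0.22 ± 0.13 (SE). Probe set 1425178_s_at gave 5.66, 6.50 and 6.02 against 6.43, 6.35 and 6.48, a difference of 0.36 ± 0.21. Probe set 1425179_at gave 5.69, 7.51 and 6.45 against 6.49, 6.50 and 6.74, a difference of 0.03 ± 0.43. Probe set 1422198_a_at, near the lower quartile of the arrays (4.95 to 5.03), had a difference of 0.20 ± 0.12. Control replicate 2 was the highest control on all 4. Without it every YY1bKO array lay above both remaining controls on all 4, and the member probe sets without overlap went from 6 to 10, where 13.8% of all probe sets were without overlap in that direction. The difference of 1425179_at was then 0.51, and it was -0.40 without control replicate 1, so that its sign rests on which control is counted.

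Shmt2, the mitochondrial counterpart, showed no shared direction among its 4 probe sets. Probe set 1455084_x_at gave 6.89, 7.48 and 7.84 in control arrays and 7.17, 7.43 and 7.57 in YY1bKO, a difference of -0.01 ± 0.25 (SE; 95% interval -0.62 to 0.60). Probe set 1426423_at gave 6.67, 6.81 and 7.11 against 6.95, 6.93 and 7.13, a difference of 0.14 ± 0.14. The third, 1455985_x_at, had a difference of -0.15 ± 0.10. The last, 1434204_x_at, lay below the lower quartile on all 6 arrays, so its difference of 0.04 carries little.

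Mthfd2, the mitochondrial dehydrogenase and cyclohydrolase that is low in most adult tissues and high in dividing cells, varied more within groups than between them. Probe set 1419253_at gave 7.15, 7.28 and 7.99 in control arrays and 7.11, 7.50 and 7.50 in YY1bKO, a difference of -0.11 ± 0.24 (SE; 95% interval -0.70 to 0.49). Probe set 1419254_at gave 6.43, 6.99 and 7.63 against 6.98, 7.43 and 7.56, a difference of 0.31 ± 0.32 (95% interval -0.47 to 1.09). The difference of 1419254_at was 0.0113 without control replicate 1 and 0.61 without control replicate 3. Control replicate 1 and YY1bKO replicate 1, the arrays with the lowest B cell marker means (6.34 and 5.95), were the lowest of their groups on both probe sets. Control replicate 3, with the highest mean of those markers (9.84), was the highest of all arrays on both. Within YY1bKO the marker mean was highest in replicate 2 (9.00, beside 7.86 in replicate 3). Replicate 3 was nevertheless the highest YY1bKO array on both probe sets, at 7.501 against 7.495 and at 7.562 against 7.428. The same held for Shmt2 probe set 1455084_x_at but not for the other 3 of Shmt2. On these control replicate 3 was the highest control, while the lowest YY1bKO array was replicate 2 on 1426423_at and 1434204_x_at, and the lowest control was replicate 2 on 1455985_x_at. The mean of 8 T cell markers ordered the arrays of each group as the B cell mean did. It ran from 6.21 to 9.18 in control arrays and from 6.16 to 8.56 in YY1bKO. Proliferation markers, 9 in all, had means from 7.42 to 8.23 in control arrays and from 6.49 to 7.41 in YY1bKO, highest in control replicate 3 and lowest in YY1bKO replicate 1. The part of lymphoid or dividing cells in the Mthfd2 and Shmt2 values was not tested.

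**Figure D2:**
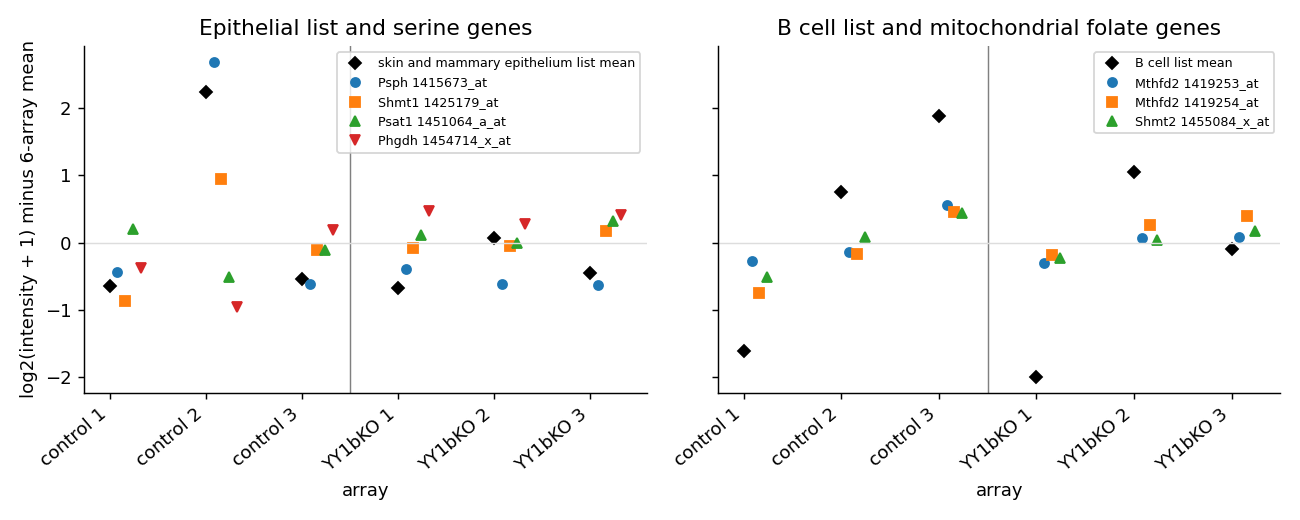
Values on each of the 6 arrays as log2(intensity + 1) minus the mean over the 6 arrays, control to the left of the grey line and YY1bKO to the right. In the left panel the epithelial marker mean (black) and the plotted probe sets of Psph (1415673_at) and Shmt1 (1425179_at) are highest in control replicate 2, where Phgdh and Psat1 are lowest. In the right panel the B cell marker mean (black), both Mthfd2 probe sets and Shmt2 probe set 1455084_x_at are highest in control replicate 3 and low in replicate 1 of each group. Within YY1bKO that mean is highest in replicate 2 and the 3 probe sets in replicate 3.

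Mthfd1, the 3-function enzyme of the cytosol, was nearly level between genotypes. Its brightest probe set, 1415916_a_at, gave 9.05, 9.15 and 9.17 in control arrays and 9.15, 9.07 and 9.03 in YY1bKO. The difference of -0.04 ± 0.09 (SE) had a 95% interval from -0.25 to 0.17. Probe set 1415917_at gave 8.42, 8.37 and 8.45 against 8.76, 8.43 and 8.57, a difference of 0.18 ± 0.11. Probe set 1436704_x_at had a difference of 0.10 ± 0.13.

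**Figure D3:**
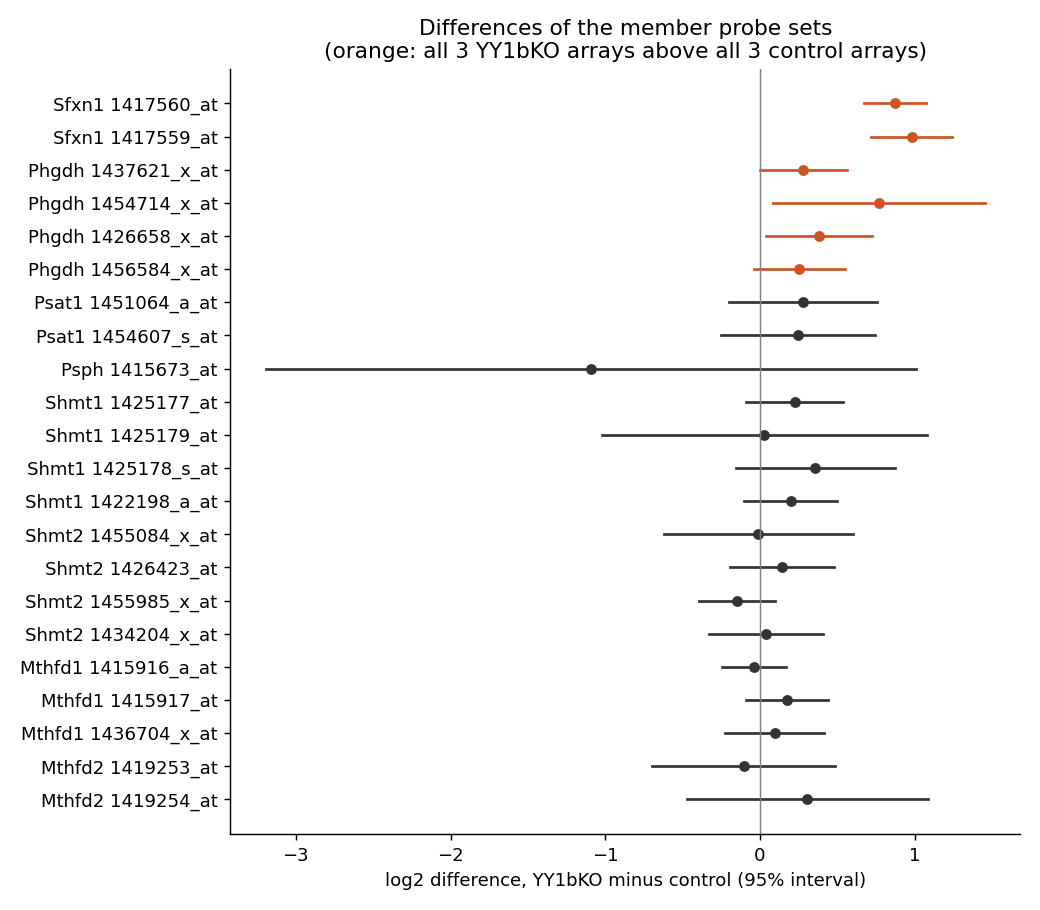
Log2 difference, YY1bKO minus control, of each of the 22 member probe sets (point) with its 95% interval from limma (line). Orange marks the 6 probe sets of Sfxn1 and Phgdh in which all 3 YY1bKO arrays lie above all 3 controls, and the long line of Psph reflects a control value of 11.46 beside 8.34 and 8.15.

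The other sideroflexins, relatives of Sfxn1 in the mitochondrial inner membrane, did not pass an adjusted p of 0.05. Sfxn4, linked to iron and cluster metabolism, gave 6.71, 6.32 and 6.69 in control arrays and 7.45, 7.06 and 7.38 in YY1bKO. Those groups did not overlap, and the difference was 0.72 ± 0.16 (SE; limma adjusted p = 0.276). Sfxn3 gave 7.88, 8.69 and 8.11 against 7.83, 8.25 and 8.04, a difference of -0.18 ± 0.23 (limma adjusted p = 0.852), which was 0.05 without control replicate 2. Sfxn2 had a difference of -0.03 ± 0.15 (limma adjusted p = 0.957), which was 0.01 with array weights and 0.10 without control replicate 1. Sfxn5 was not analysed here.

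Around the members, 70 further genes of serine, glycine, folate, methionine and purine metabolism and of the ATF4 response, the other sideroflexins included, were measured, each taken by its brightest probe set. None passed an adjusted p of 0.05 by limma, where 0.0484% of all genes passed higher and none lower. At an unadjusted p under 0.05, 14 were higher and 0 lower, beside 8.6% and 2.11% of all genes. Of the 14, 8 belonged to the ATF4 list. The lists were chosen with earlier results of these data known, so these counts are a description. By mean 48 were higher and 22 lower, where 51.0% of all genes were higher, and the median difference of the 70 was 0.07, beside 0.0046.

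Of 10 further folate genes, 6 were higher by mean and 4 lower, with a median of 0.07, and 1 was higher at an unadjusted p under 0.05. That gene was Mtfmt, which formylates the mitochondrial initiator tRNA with a folate-bound carbon. It gave 7.39, 7.44 and 7.70 in control arrays and 7.91, 7.76 and 7.81 in YY1bKO, a difference of 0.32 (limma adjusted p = 0.470). Fpgs, which adds glutamates to folates, had a difference of -0.20 (limma adjusted p = 0.546) with no overlap between groups. Aldh1l1, the cytosolic formyltetrahydrofolate dehydrogenase, had 0.22 on its brightest probe set and -0.14 on the other. Folr1 and Folr2, the folate receptors, had -0.56 and 0.41, with control replicate 2 the highest and the lowest array respectively. Folr1 lay below the lower quartile on 5 of the 6 arrays. Tyms, thymidylate synthase, lay below the lower quartile on all 6 arrays. Mthfd1l, Mthfd2l and Aldh1l2 were not analysed here.

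The glycine cleavage system, which splits glycine in mitochondria, had 3 measured genes. Dld, the lipoamide dehydrogenase it shares with pyruvate dehydrogenase, had a difference of 0.45 ± 0.17 (SE; limma adjusted p = 0.487). Gldc and Gcsh had 0.22 and 0.02, and the latter changed sign under several alternatives.

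Of 17 genes of the methionine cycle and transsulfuration, 14 were higher by mean and 3 lower, with a median of 0.07 and 2 higher at an unadjusted p under 0.05. Those 2 were Ahcyl1, a relative of the enzyme that clears S-adenosylhomocysteine, and Chdh, the mitochondrial choline dehydrogenase that opens the betaine route to methyl groups. Ahcyl1 gave 10.39, 10.31 and 10.30 in control arrays and 10.63, 10.81 and 10.72 in YY1bKO, a difference of 0.38 ± 0.09 (SE; limma adjusted p = 0.285), with 3 probe sets from 0.38 to 0.44. Chdh gave 9.17, 9.82 and 9.63 against 10.09, 10.23 and 10.92, a difference of 0.87 ± 0.27 (limma adjusted p = 0.393). Neither overlapped between groups. Ahcyl2 had 0.26 and Mtrr, the methionine synthase reductase, 0.16.

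Of 13 genes of serine transport and use, 8 were higher by mean and 5 lower, with a median of 0.02. Srr, the racemase that turns L-serine into D-serine, was the 1 gene at an unadjusted p under 0.05. It gave 7.92, 7.66 and 7.68 in control arrays and 8.48, 8.39 and 8.39 in YY1bKO, a difference of 0.67 ± 0.10 (SE; limma adjusted p = 0.159), and its 4 probe sets ran from 0.22 to 0.67. Slc7a10, a plasma membrane carrier of small neutral amino acids found in adipocytes, had 0.48. Slc38a1 and Slc1a4, which also carry neutral amino acids, had -0.44 and -0.35, with -0.19 without control replicate 3 for the former and -0.11 without control replicate 1 for the latter. All 3 overlapped between groups.

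The 6 genes of purine synthesis, the main taker of cytosolic formate, stayed within -0.27 and 0.11. Prps2 had -0.27 on its brightest probe set and -0.0041 on the other, and Paics had 0.11. By the brightest probe set both were without overlap between groups, where 5.0% of all genes were so lower and 11.5% higher. Adsl and Gart had 0.09 and 0.07. None of the 6 was at an unadjusted p under 0.05 by limma or past the adjusted threshold.

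None of the ATF4 list passed the adjusted threshold by limma, and no test set it against the other lists. Of its 18 measured genes, 13 were higher by mean and 5 lower, with a median of 0.26. At an unadjusted p under 0.05 by limma, 8 were higher and 0 lower, beside 8.6% and 2.11% of all genes. The list was chosen with earlier results of these data known, so its counts are a description. The groups did not overlap in 8 genes, all higher in YY1bKO, where 11.5% of all genes were so. Trib3, a pseudokinase induced by stress, gave 6.92, 6.62 and 6.51 in control arrays and 7.41, 7.73 and 7.74 in YY1bKO, a difference of 0.94 ± 0.15 (SE; limma adjusted p = 0.161). Asns, asparagine synthetase, gave 9.63, 9.26 and 9.10 against 10.23, 9.97 and 10.35, a difference of 0.86 ± 0.17 (limma adjusted p = 0.232). Eif4ebp1, a brake on cap-dependent translation, and Pck2, the mitochondrial phosphoenolpyruvate carboxykinase, had 0.57 ± 0.11 and 0.54 ± 0.12. The 5 lower genes were Nupr1, Slc7a5, Atf3, Aldh18a1 and Slc7a11, from -0.88 to -0.24, all with overlap between groups. Atf4 itself had a difference of 0.08 ± 0.11 on its brightest probe set and -0.11 as the mean of its 3 probe sets. Among members known as ATF4 targets, the differences were 0.25 to 0.77 on the Phgdh probe sets and 0.25 and 0.28 on those of Psat1. They were -0.15 to 0.14 on those of Shmt2, and -0.11 and 0.31 on those of Mthfd2. Psph had -1.09, which became -0.02 without control replicate 2.

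**Figure D4:**
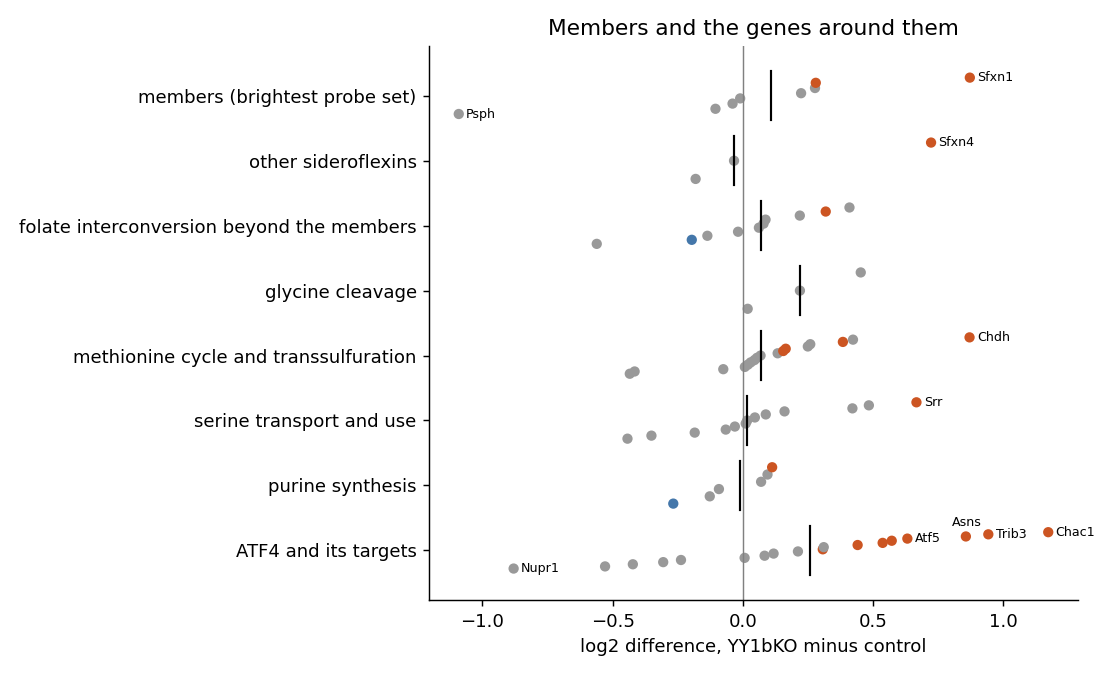
Log2 difference, YY1bKO minus control, of the 8 members and the 70 genes around them, with 1 point per gene by its brightest probe set and a black bar at each list's median. Orange points have all YY1bKO arrays above all controls and blue points all below; the ATF4 list holds 8 orange points and the purine list stays within -0.27 and 0.11.

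The promoters of the members were searched for motifs for letters bound by factors named in the study or tied to this pathway. RefSeq promoter entries (GRCm38.p6) were found for all 8 members, and the 250 bases before each start were read on both strands. The motifs were TGATGNAA for ATF4 with C/EBP, AANATGGC for YY1, the 10-base palindrome of NRF1, and the E-box CACGTG. Of all 32851 promoter windows of that length, 3.45% held the ATF4 motif, 3.91% that of YY1, 3.74% that of NRF1 and 6.02% the E-box. Among the members, 0 of 8 genes held the ATF4, YY1 or E-box letters, and Shmt2 held the NRF1 letters, from 19 to 10 bases before its start. Of 18 genes of the ATF4 list with a promoter entry, 8 held the ATF4 letters, Asns among them, and so did Sfxn4. The windows of Sfxn1 and Phgdh are shown as those of the members without overlap between genotypes, Shmt2 for its match, and Sfxn4 and Asns for comparison. Each runs 5′ to 3′ on the strand of the gene, with matched letters in capitals (TTGCATCA in Sfxn4 is the ATF4 motif read from the other strand).
Sfxn1 promoter, chr13:54071595-54071844, plus strand: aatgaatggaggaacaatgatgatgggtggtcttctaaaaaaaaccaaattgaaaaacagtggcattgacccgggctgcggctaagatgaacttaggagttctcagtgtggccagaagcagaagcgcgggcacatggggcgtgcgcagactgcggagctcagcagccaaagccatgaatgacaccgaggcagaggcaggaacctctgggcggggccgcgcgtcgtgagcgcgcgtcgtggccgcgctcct
Phgdh promoter, chr3:98339970-98340219, minus strand: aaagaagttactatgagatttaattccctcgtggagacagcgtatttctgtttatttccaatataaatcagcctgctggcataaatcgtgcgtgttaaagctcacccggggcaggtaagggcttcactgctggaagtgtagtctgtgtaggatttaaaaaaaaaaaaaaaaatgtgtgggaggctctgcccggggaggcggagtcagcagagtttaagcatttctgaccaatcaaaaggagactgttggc
Shmt2 promoter, chr10:127522445-127522694, minus strand: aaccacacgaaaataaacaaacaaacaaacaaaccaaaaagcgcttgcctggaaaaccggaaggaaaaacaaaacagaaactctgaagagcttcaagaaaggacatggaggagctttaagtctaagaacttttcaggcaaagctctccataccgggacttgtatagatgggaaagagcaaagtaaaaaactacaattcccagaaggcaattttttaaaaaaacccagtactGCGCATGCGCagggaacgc
Sfxn4 promoter, chr19:60861429-60861678, minus strand: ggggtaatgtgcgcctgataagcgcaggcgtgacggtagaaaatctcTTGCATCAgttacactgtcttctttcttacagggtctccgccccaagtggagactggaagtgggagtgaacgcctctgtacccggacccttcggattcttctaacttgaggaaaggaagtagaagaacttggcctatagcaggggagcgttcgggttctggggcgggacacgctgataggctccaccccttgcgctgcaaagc
Asns promoter, chr6:7693210-7693459, minus strand: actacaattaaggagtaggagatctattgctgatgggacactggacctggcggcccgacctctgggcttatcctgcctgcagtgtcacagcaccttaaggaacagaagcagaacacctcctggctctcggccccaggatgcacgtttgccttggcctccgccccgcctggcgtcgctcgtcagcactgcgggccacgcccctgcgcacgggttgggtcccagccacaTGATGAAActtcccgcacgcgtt
A match is a run of letters and no evidence of binding, and a window without one says nothing of sites elsewhere.

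The genes whose profile over the 6 arrays was most like that of Sfxn1 lay outside serine metabolism. Likeness was the root mean square difference between levels centred on their 6-array means, among 9745 genes whose mean level was above the 25th percentile of probe sets. Clone (Rik) and predicted (Gm number) names were left out of these. Pck1, the cytosolic phosphoenolpyruvate carboxykinase of glyceroneogenesis, came nearest at 0.06, followed by Thrsp, a lipogenic protein of fat and liver, Fbxo21, Txlng and Gt(ROSA)26Sor, a noncoding transcript, at 0.09 to 0.10. Pck1 gave 11.54, 11.65 and 11.59 in control arrays and 12.48, 12.39 and 12.36 in YY1bKO, a log2 difference of 0.82 ± 0.09 (SE). Its other probe set lay below the lower quartile on all 6 arrays, with a difference of 0.01, and the mean of both had a difference of 0.41. Fbxo21, a ubiquitin ligase subunit, had a difference of 0.96. The second Sfxn1 probe set stood at 0.11 by the same measure, Sfxn4 at 0.21 and the nearest other member, Phgdh, at 0.32. Mthfd1 stood at 0.46, Shmt2 at 0.54, Mthfd2 at 0.57 and Psph at 1.45. These 5 genes were picked for their likeness in these arrays, so their differences are a description.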

How the data were processed

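Total RNA from subcutaneous white fat was labelled with biotin and hybridised to Affymetrix mouse arrays, 1 array a sample and 3 a genotype, per the labels' protocols. The deposited intensity values were made by the authors with RMA, per the submitters' processing notes, whose version no source here gives. They ran from 5.4 to 25730.1 and were read as linear. RMA makes arrays alike in distribution, so a change of total RNA is not seen, and medians ran from 122.6 to 130.2. The number of arrays limits the precision.

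Levels are log2(intensity + 1), with a pseudocount of 1, of all 22626 probe sets that were no array control, with no filter on dim ones. Of these, 20380 had 1 gene symbol, 691 several and 1555 none, and 20351 symbols were matched to RefSeq genes (GRCm38.p6) by identifier, which changed 0. Genotypes were compared in R 4.3.3 by limma 3.58.1 (a linear fit per probe set with eBayes, 6.23 total degrees of freedom, 2-sided, Benjamini-Hochberg over all probe sets, threshold 0.05). Fold changes on this scale understate the change of low genes. The fit was tested on simulated data. Arrays shared at most 212 identical values.

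Members and lists were chosen with earlier results of these data known. Named genes were all members, the 4 of each pathway list with the smallest p, other sideroflexins, a few fixed folate and ATF4 genes, Yy1, Ucp1, and the 5 genes most like Sfxn1. Alternatives were another pseudocount, 2 scalings, 2 filters on dim probe sets, an intensity trend, robust eBayes, weights per array, a block for replicate number, the mean of a gene's probe sets and leaving out arrays.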

Additional observations from a re-analysis of the deposited data

How the results depend on the processing

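With 3 arrays a group, the number of calls moved with the settings, and leaving out 1 array moved many of the members' differences. Of 22626 probe sets, 11 passed an adjusted p of 0.05 by limma, beside 5 with array medians subtracted, 23 with array weights, 7 with the filter at the 25th percentile and 1 to 7 without each array in turn. Of the member probe sets 0 passed, beside 1 with array weights, 1 with the filter at the 50th percentile and 1 with a pseudocount of 16. Over all probe sets tested in those settings, 23, 15 and 16 passed, and nothing is read from the member counts. The filter at the 50th percentile also left fewer members, 11 of 15 higher in place of 17 of 22. The share higher among all probe sets past that filter was not counted. Leaving out each array gave 6 to 10 member probe sets without overlap and higher in YY1bKO, the most without control replicate 2. The share over all probe sets was then 12.6% to 23.1%, and 13.8% without control replicate 2, beside 10.3% with all arrays. Without control replicate 2 and YY1bKO replicate 1 together, chosen after seeing the data, there were also 10, where 16.9% of all probe sets were so. That setting left 1 probe set past the threshold, and the differences of Phgdh 1426658_x_at and 1456584_x_at were 0.20 and 0.11. The pathway genes past the threshold were 0 under all alternatives run. Same-numbered arrays deviated from their group means with correlations of 0.61, 0.11 and 0.02, so the numbers were not taken as pairs. The fit with the replicate block left 1 probe set past the threshold, in place of 11.

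Among the named pathway genes, signs turned for 8, none of which passed in any setting. Leaving out 1 array also turned the sign of Shmt1 1425179_at (-0.40 to 0.51), Shmt2 1455084_x_at (-0.27 to 0.21) and 1434204_x_at (-0.0844 to 0.18), Mthfd1 1436704_x_at (-0.0154 to 0.18) and Mthfd2 1419253_at (-0.27 to 0.15). Sfxn2 was 0.0081 with array weights, Gcsh -0.0041 with quantile normalization, and Tyms and Atf4 were -0.0178 and -0.11 with the mean of all probe sets. Without control replicate 2 and YY1bKO replicate 1 together, Sfxn3 was 0.16, Gldc -0.12, Gcsh -0.15 and Tyms -0.0301, while Sfxn2 was -0.21 and Gart 0.17. Leaving out each array gave -0.15 to 0.10 for Sfxn2, -0.36 to 0.0525 for Sfxn3, -0.11 to 0.24 for Gcsh, -0.0042 to 0.37 for Gldc, -0.0475 to 0.13 for Gart and -0.0030 to 0.52 for Aldh1l1. The cause of these shifts was not tested.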
